A study of Mus musculus with 15 samples.

Results

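Dermal adipocytes of mice at postnatal day 49 (P49) were compared with those at postnatal day 21 (P21), the last and the first of 5 ages in a series of 15 RNA-seq libraries. The comparison used 3 libraries per age, 6 in all, and was made over the 12259 of 35275 genes in the table that reached 1 FPKM (fragments counted to a gene, scaled by its length in kilobases and by the size of the library) in at least 3 of the 15 libraries. The adipocytes came from back skin of C57BL/6 mice, with no genetic change or treatment named. Skin was digested with collagenase IV and dispase II, and the buoyant fat cells were collected by centrifugation. The labels give neither sex, hair cycle stage, time of day, nor whether a library is 1 animal or a pool, so the p-values reflect only how far these libraries differ within an age, a spread that may be technical.

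Dermal white fat is the layer of adipocytes beneath the reticular dermis that surrounds the lower hair follicles. In mice it thickens and thins with the hair cycle, and its cells store triglyceride. The fatty acids of this triglyceride are either taken up from blood or made in the cell from glucose carbon. Fatty acid synthesis runs from citrate through acetyl-CoA and malonyl-CoA to palmitate, which is elongated, desaturated and esterified to glycerol. SREBP transcription factors drive much of this program and that of sterol synthesis.

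The recovered depth was 23678129 to 29419595 reads counted to genes in the 6 libraries. The floor of 3 reads on a gene of 1 kb lay at 0.102 to 0.127 FPKM there. P49 libraries were close to each other (mean r of log2 values with the other P49 libraries 0.992 to 0.993) and P21 libraries slightly less so (0.985 to 0.987). One library outside the comparison, P25 replicate 2, stood apart from its age (mean r 0.926) and entered through the shared estimate of the spread, the filter on low genes and the P25 means given below. Adipocyte markers were abundant at both ages, as the labelled cell type requires. Plin1, the lipid droplet coat protein, was at 683, 751 and 802 FPKM in the P21 libraries and 1304, 1255 and 1396 in the P49 libraries. Fabp4, the fatty acid carrier, was at 8634, 9891 and 9621 FPKM at P21 and 10284, 9938 and 10005 at P49. Ucp1, the uncoupling protein of brown fat, had a mean of 0.0285 FPKM at P21 and 0.0214 at P49, under the floor, and was not tested.

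Between P21 and P49, lipid-synthesis, interferon and clock-output genes were among those that rose, and collagen, imprinted growth, mast cell, red cell and endothelial genes among those that fell. By limma with Benjamini-Hochberg adjustment 2679 genes passed an adjusted p of 0.05, 21.9% of those tested. Of these, 1021 were higher at P49 (8.33% of those tested) and 1658 lower (13.5%). The difference was at least 2-fold on the log2(FPKM + 1) scale for 616 genes, 159 higher and 457 lower. In 2665 of the 2679 the P21 and P49 libraries did not overlap. The split between directions depended on scaling: quantile normalization gave 1422 higher and 1221 lower, and median-ratio scaling 1397 higher and 1153 lower, with no called gene changing sign. The number of calls also depended on single libraries. It was 1066 without P21 replicate 1, 1457 without P21 replicate 3, 1196 without P49 replicate 1 or P49 replicate 2, 1400 without P49 replicate 3, and 4498 without P25 replicate 2.

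**Figure D1:**
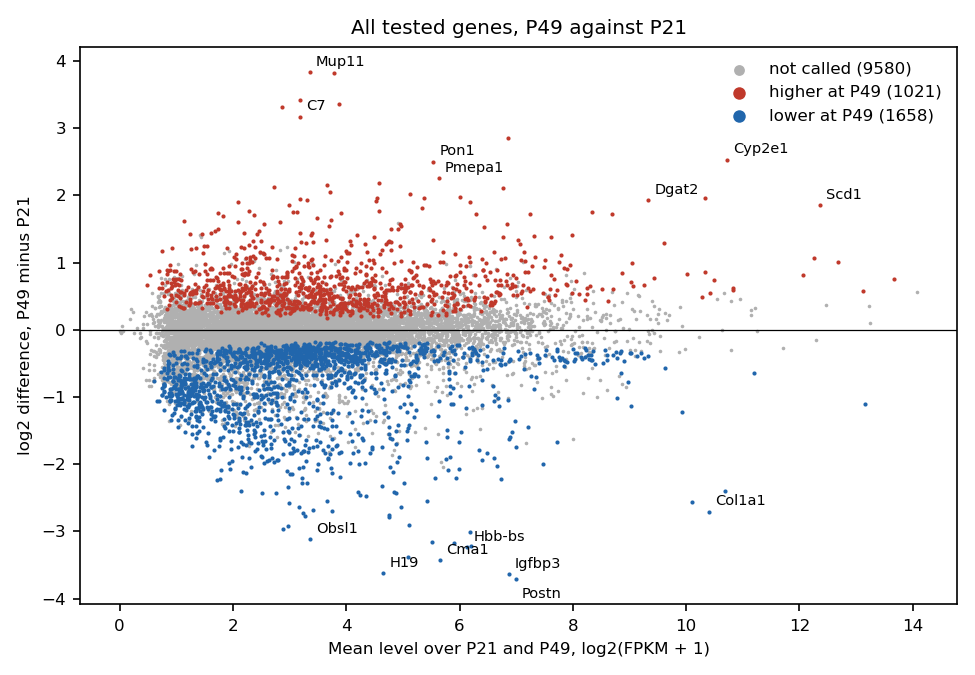
Each point is 1 of the 12259 tested genes, with its mean level over both ages on the x axis (log2 of FPKM + 1) and its log2 difference (P49 minus P21) on the y axis. Red points are the 1021 genes called higher at P49 and blue points the 1658 called lower; Mup11 and C7 are labelled among the rises, and Postn, Igfbp3 and H19 among the falls.

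Over all tested genes the median log2 difference was -0.05, with 8.33% called higher and 13.5% called lower. Each list's median and counts are read against these values.

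**Figure D2:**
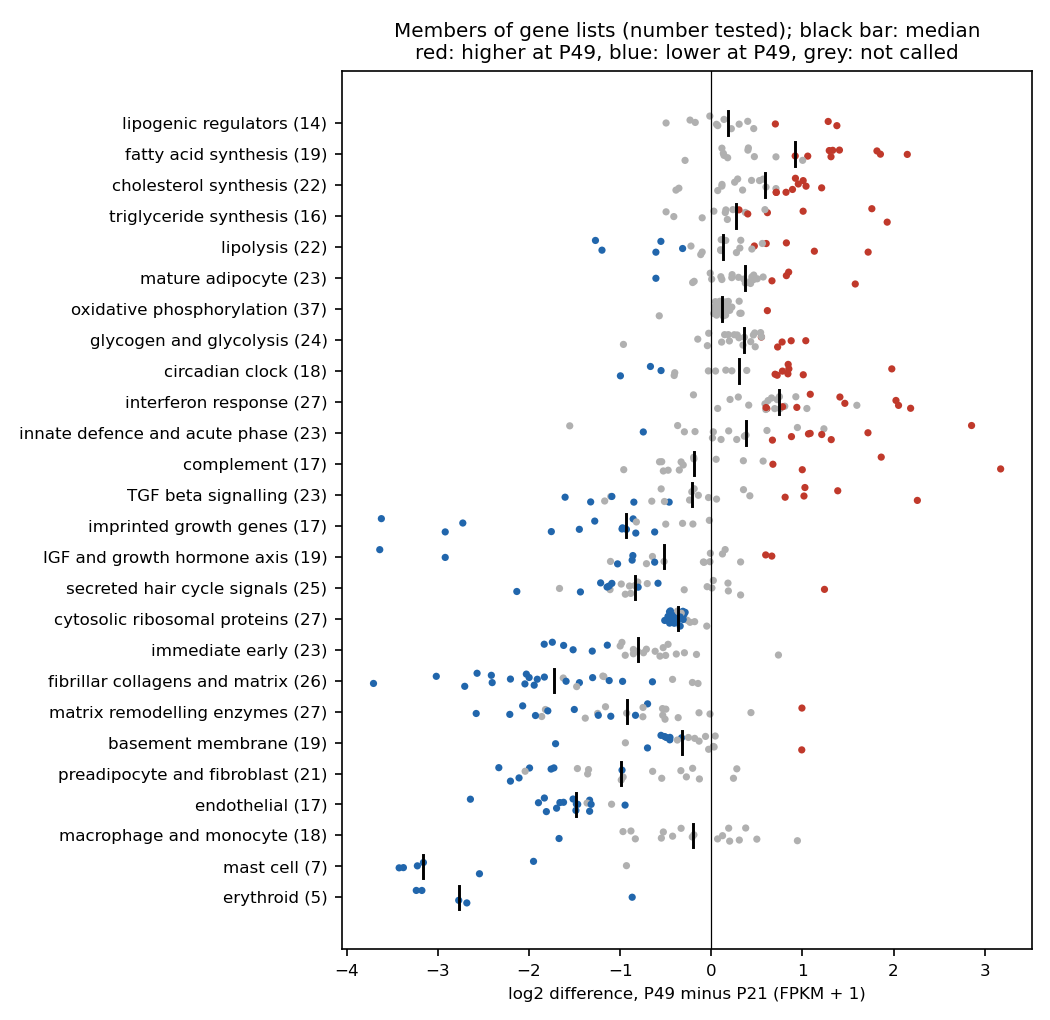
Each row is a gene list with its number of tested members, each point a member's log2 difference (P49 minus P21), and the black bar the median. Fatty acid synthesis has a median of 0.92, fibrillar collagens and matrix -1.73 and mast cell markers -3.16.

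Of 19 tested fatty acid synthesis genes 9 rose and 0 fell, with a median log2 difference of 0.92. Scd1, the main stearoyl-CoA desaturase of fat (ENSMUSG00000037071, chr19:44394451-44407709, minus strand, positions here and below on mm10/GRCm38 as deposited), was at 1949, 3316 and 1775 FPKM in the 3 P21 libraries and 7949.6, 8571 and 7992 in the 3 P49 libraries. Every P49 library was thus above every P21 library, and the mean rose 3.48-fold (log2 difference 1.86 ± 0.25 SE, adjusted p = 0.000836). Elovl6, which elongates palmitate to stearate, was at 4.46, 3.65 and 2.27 FPKM at P21 and 15.1, 31.3 and 13.02 at P49. P49 replicate 2 was the highest of the 3, and all P49 libraries exceeded every P21 library (log2 difference 2.15 ± 0.35 SE, adjusted p = 0.00267). Acss2, which makes acetyl-CoA from acetate, rose from 17.5 ± 7.36 to 61.2 ± 12.6 FPKM (log2 difference 1.82, adjusted p = 0.00827). Here and below, such levels are mean ± SD of 3 libraries.

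Slc25a1, the mitochondrial citrate carrier, was at 173, 149.95 and 95.8 FPKM at P21 and 335, 408 and 344 at P49 (log2 difference 1.41, adjusted p = 0.00523). Me1, the malic enzyme that yields NADPH, rose from 75.2 ± 26.1 to 185 ± 42.4 FPKM (log2 difference 1.33, adjusted p = 0.0156, but 0.063 without P49 replicate 2, the highest of 2 such libraries). Acaca, which makes malonyl-CoA, rose from 68.4 ± 13.99 to 142 ± 10.5 FPKM (log2 difference 1.06, adjusted p = 0.0227, but 0.0817 without P21 replicate 3, the highest of 5 such libraries). Fasn, which builds palmitate, was at 612, 534 and 258 FPKM at P21 and 977, 1253 and 1021 at P49. These groups did not overlap (log2 difference 1.29 ± 0.36 SE, adjusted p = 0.0269, but 0.0914 without P21 replicate 3, the highest of 4 such libraries). The count of rising genes was 4 without P21 replicate 3 or P49 replicate 2, and 11 without P25 replicate 2. For 16 of the 19 genes the highest mean of the 5 ages was at P25 (16 without P25 replicate 2): Fasn averaged 1849 FPKM at P25 and 816 at P35, and Me1 401 and 183. Scd1 had its highest mean at P49 (5578 at P25, 4558 at P29, 4517 at P35).

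Among 14 lipogenic regulators 3 rose and 0 fell (5 rose without P25 replicate 2), with a median log2 difference of 0.18. Srebf1, which encodes the SREBP-1 factors, was at 82.5, 68.2 and 81.9 FPKM in the P21 libraries and 208, 175 and 187 at P49, a 2.45-fold rise (log2 difference 1.28 ± 0.18 SE, adjusted p = 0.00116). Insig1, a sterol-sensing retention factor and itself an SREBP target, was at 73.2, 50.3 and 55.5 and 162, 147 and 155 FPKM (log2 difference 1.38, adjusted p = 0.000644). Mlxipl, the carbohydrate-responsive factor ChREBP, rose from 41.4 ± 5.06 to 68.02 ± 7.61 FPKM (log2 difference 0.70, adjusted p = 0.0345, but 0.123 without P21 replicate 1, the highest of 6 such libraries).

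Of 22 tested sterol synthesis genes 9 rose and 0 fell (median log2 difference 0.58), and 16 of the 22 had every P49 library above every P21 library, as did 19.9% of all tested genes. Tm7sf2, a sterol reductase, was at 5.33, 4.97 and 2.44 FPKM at P21 and 9.698, 11.2 and 11.4 at P49 (log2 difference 1.21, adjusted p = 0.0108). Cyp51, the lanosterol demethylase, rose from 5.89 ± 1.32 to 13.01 ± 0.744 FPKM (log2 difference 1.04, adjusted p = 0.00994), and Sc5d, a sterol desaturase, rose from 23.1 ± 2.86 to 47.4 ± 4.92 FPKM (log2 difference 1.01, adjusted p = 0.00411). The count was 5 without P49 replicate 1, P49 replicate 2 or P49 replicate 3, and 13 without P25 replicate 2. For 20 of the 22 genes the highest mean of the 5 ages was at P25 (18 without P25 replicate 2).

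Triglyceride assembly had 6 of 16 tested genes higher and 0 lower (median log2 difference 0.27). Dgat2, which catalyses the last acylation (ENSMUSG00000030747, chr7:99153663-99182713, minus strand), was at 306, 262 and 236 FPKM in the P21 libraries and 1038, 995 and 1021 in the P49 libraries. The P49 values lay within a narrow band, 3.80-fold above the P21 mean (log2 difference 1.93 ± 0.18 SE, adjusted p = 9.83e-05). Mogat1, a monoacylglycerol acyltransferase, rose from 1.21 ± 0.0696 to 6.49 ± 0.575 FPKM (log2 difference 1.76, adjusted p = 3.65e-05). Agpat2, which makes phosphatidic acid, rose from 144 ± 28.8 to 287 ± 2.69 FPKM (log2 difference 1.01, adjusted p = 0.00645). The count was 3 without P49 replicate 3.

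**Figure D3:**
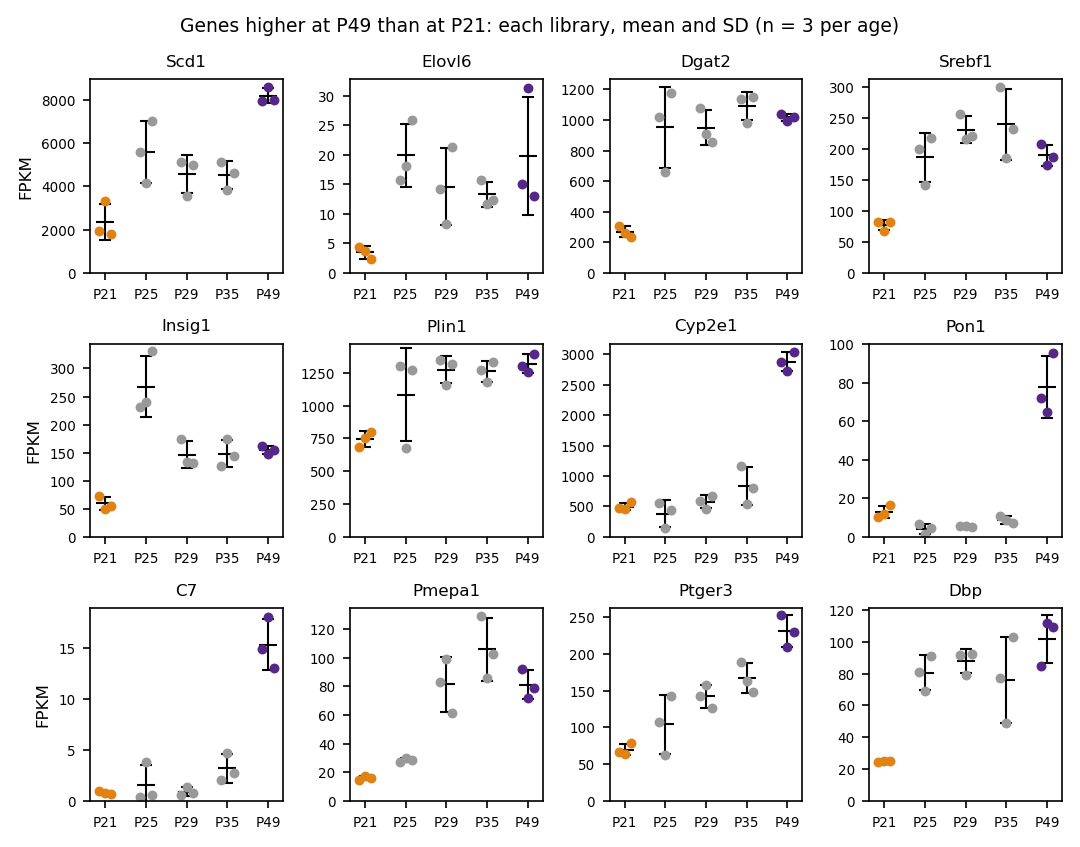
Each panel shows 1 gene at all 5 ages, with FPKM on the y axis from 0, a point per library (orange P21, grey P25 to P35, purple P49) and a bar for mean and SD of 3. Dgat2, Srebf1, Plin1 and Dbp are already above P21 at P25 on average, while Cyp2e1, Pon1 and C7 have their high values at P49.

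Lipolysis genes went both ways, with 5 of 22 higher and 5 lower (8 higher without P25 replicate 2). Ptger3, a prostaglandin E2 receptor that lowers cyclic AMP, was at 66.004, 64.2 and 78.2 FPKM at P21 and 254, 209 and 230.3 at P49 (log2 difference 1.72 ± 0.23 SE, adjusted p = 0.000791). Npr3, the natriuretic peptide clearance receptor, rose from 37.4 ± 8.51 to 81.6 ± 3.09 FPKM (log2 difference 1.13, adjusted p = 0.00475), while Npr1, the signalling receptor for these peptides, fell from 8.72 ± 2.57 to 2.95 ± 0.459 FPKM (log2 difference -1.27, adjusted p = 0.0248, but 0.0998 without P21 replicate 1, the highest of 5 such libraries). Of the lipases, Lipe, hormone-sensitive lipase, rose from 292 ± 37.99 to 441 ± 16.8 FPKM (log2 difference 0.60, adjusted p = 0.0487, but 0.158 without P21 replicate 1, the highest of 6 such libraries). Pnpla2, the triglyceride lipase of the first step, was at 1096, 1419 and 1234 FPKM at P21 and 1131, 1189 and 1159.5 at P49, groups that overlapped (log2 difference -0.10, adjusted p = 0.773). The higher count was 2 without P21 replicate 1 or P49 replicate 3, and 3 without P21 replicate 3, P49 replicate 1 or P49 replicate 2, and the lower count 0 without P21 replicate 3, 2 without P49 replicate 1 or P49 replicate 2, and 3 without P21 replicate 1, P21 replicate 2 or P49 replicate 3.

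Of 23 mature adipocyte markers 4 rose and 1 fell (12 rose without P25 replicate 2). Tusc5 (Trarg1), which acts in trafficking of the insulin-responsive glucose transporter, was at 53.6, 49.3 and 67.3 FPKM at P21 and 173, 159 and 179 at P49 (log2 difference 1.58 ± 0.17 SE, adjusted p = 0.000148). Plin1 (log2 difference 0.82, adjusted p = 0.015, but 0.061 without P21 replicate 1, the highest of 2 such libraries) also rose, and the adipogenic factor Cebpa rose from 332 ± 27.7 to 599 ± 35.9 FPKM (log2 difference 0.85, adjusted p = 0.00748). Aqp7, a glycerol channel, fell from 66.98 ± 6.66 to 43.7 ± 5.26 FPKM (log2 difference -0.61, adjusted p = 0.018, but 0.0714 without P49 replicate 1, the highest of 4 such libraries). Adipoq, Lep, Cidec and Pparg did not pass: Adipoq averaged 2040.01 ± 313 FPKM at P21 and 2491 ± 59.2 at P49 (adjusted p = 0.297), and Pparg 91.4 ± 8.99 and 126 ± 3.46 (adjusted p = 0.0537). Leptin, the satiety hormone, was at 144, 267 and 199 FPKM and 290.3, 226 and 286 FPKM in overlapping groups (adjusted p = 0.204).

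Secreted factors of fat were mixed, with 4 of 22 higher and 2 lower (9 higher without P25 replicate 2, and 1 lower without any 1 of the 6 libraries). Nrg4, a growth factor of the EGF family, was at 15.2, 12.9 and 16.01 FPKM at P21 and 51.2, 40.7 and 38.7 at P49 (log2 difference 1.499, adjusted p = 0.00329). Apln, the ligand of the apelin receptor, rose from 1.95 ± 1.15 to 6.29 ± 2.51 FPKM (log2 difference 1.32, adjusted p = 0.0108). Agt, angiotensinogen, was at 269, 389 and 305 FPKM at P21 and 92.6, 98.9 and 108 at P49 (log2 difference -1.66 ± 0.26 SE, adjusted p = 0.00188). Every P49 value of Agt lay below every P21 value. Hsd11b1, which regenerates active glucocorticoid inside cells, rose from 25.7 ± 8.05 to 64.4 ± 1.81 FPKM (log2 difference 1.33, adjusted p = 0.000591). It belongs to a list of 16 steroid and thyroid hormone response genes, of which 3 rose and 2 fell. These counts are 18.75% and 12.5% of the list, against 8.33% and 13.5% of all tested genes. Zbtb16, a transcription factor that glucocorticoid induces, fell from 66.2 ± 16.6 to 31.3 ± 7.102 FPKM (log2 difference -1.05, adjusted p = 0.0092).

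Of 26 genes of fatty acid uptake and oxidation 2 rose and 1 fell (11 rose without P25 replicate 2). These shares, 7.69% higher and 3.85% lower, were below those over all tested genes (8.33% and 13.5%). Cpt2, the inner membrane carnitine palmitoyltransferase, rose from 32.3 ± 2.34 to 55.2 ± 1.19 FPKM (log2 difference 0.76, adjusted p = 0.0137, but 0.0531 without P21 replicate 1). Gpihbp1, which anchors lipoprotein lipase on capillary endothelium, fell from 26.2 ± 7.51 to 6.66 ± 2.07 FPKM (log2 difference -1.83, adjusted p = 0.0134, but 0.0591 without P21 replicate 1, the highest of 2 such libraries). Of 22 genes of branched chain amino acid breakdown 2 rose and 2 fell, 9.09% each, against 8.33% and 13.5% of all tested genes. The higher count was 0 without P21 replicate 1, P49 replicate 1, P49 replicate 2 or P49 replicate 3, and 1 without P21 replicate 2 or P21 replicate 3, and 7 without P25 replicate 2. The lower count was 1 without P21 replicate 1, P21 replicate 3, P49 replicate 1, P49 replicate 2 or P49 replicate 3, and 4 without P25 replicate 2. The 2 that fell are transporters, Slc7a5, from 10.3 ± 3.402 to 2.603 ± 0.769 FPKM (log2 difference -1.62, adjusted p = 0.0357, but 0.113 without P49 replicate 1, the highest of 5 such libraries), and Slc7a8, from 12.8 ± 2.88 to 4.405 ± 0.192 FPKM (log2 difference -1.33, adjusted p = 0.00501). Of 7 tested thermogenic genes 1 fell, Zic1, from 2.67 ± 0.412 to 1.09 ± 0.276 FPKM (log2 difference -0.82, adjusted p = 0.0124, but 0.0561 without P21 replicate 1).

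Of 37 nuclear genes of oxidative phosphorylation 1 rose (Ndufa1, adjusted p = 0.0139, but 0.0554 without P21 replicate 3) and 0 fell, with a median log2 difference of 0.11. For 28 of the 37 the highest mean of the 5 ages was at P25 (35 without P25 replicate 2), and for 9 at P29. Of 20 tricarboxylic acid cycle genes 0 passed in limma and 0 by voom, and 2 were at an unadjusted p under 0.05, both higher; 2 rose without P25 replicate 2. Of 24 genes of glycogen and glycolysis 5 rose and 0 fell (10 rose without P25 replicate 2). Hk2, the insulin-regulated hexokinase, was at 49.4, 53.8 and 49.1 FPKM at P21 and 86.3, 84.1 and 83.6 at P49 (log2 difference 0.73, adjusted p = 0.000894). Pfkfb3, which makes an activator of phosphofructokinase, rose from 87.6 ± 4.91 to 183 ± 32.6 FPKM (log2 difference 1.04, adjusted p = 0.00259). Mitochondrially encoded genes, a family looked at after its values were seen, had 12 of 13 members higher and 0 lower, among them mt-Nd1, from 4334 ± 351 to 8739 ± 1060.4 FPKM (log2 difference 1.01, adjusted p = 0.00203), and mt-Nd2, from 3179 ± 439 to 6663 ± 899 FPKM (log2 difference 1.07, adjusted p = 0.00228). Reads from the mitochondrial genome made up 3.43% to 4.10% of the P21 libraries and 5.69% to 7.15% of the P49 libraries. The 13 genes summed to 27260 to 32706 FPKM at P21 and 47658 to 67193 at P25. Their sum was 58599 to 72804 at P29, 63998 to 82896 at P35 and 45407 to 57120 at P49. Every P49 library was thus below every P29 and P35 library. Under the same test 4 of 21 insulin and glucose genes rose and 4 fell. The higher count was 2 without P21 replicate 1, P49 replicate 1, P49 replicate 2 or P49 replicate 3, and the lower count 2 without P21 replicate 1, P21 replicate 2, P49 replicate 1 or P49 replicate 2. The fall of Grb10, an adaptor that restrains the insulin and IGF receptors, was from 39.8 ± 3.42 to 21.95 ± 1.24 FPKM (log2 difference -0.83, adjusted p = 0.000114).

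Among genes of at least 5 FPKM at P49 the 5 largest rises belonged to major urinary protein genes, which encode small lipid carriers best known from liver and urine. The file lists 21 Mup genes, of which 8 were tested and 7 rose; this family too was looked at after its values were seen. Mup11 was at 0.183, 0.572 and 0.2902 FPKM at P21 and 16.7, 17.9 and 19.8 at P49 (log2 difference 3.83 ± 0.32 SE, adjusted p = 5.06e-05). Mup7 (log2 difference 3.83), Mup10 (3.42), Mup3 (3.36) and Mup15 (3.31) followed, with adjusted p = 5.06e-05, 5e-06, 0.000148 and 9.83e-05. These genes are near-identical copies, so the level of each single gene is uncertain. The sum over the family was 3.64 to 7.04 FPKM in the P21 libraries, 71.6 to 147 at P35 and 83.1 to 115.5 at P49.

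Several large rises appeared mainly at the last age. Cyp2e1, a cytochrome P450 that oxidises ethanol and other small molecules (ENSMUSG00000025479, chr7:140763739-140774975, plus strand), was at 472, 452 and 569 FPKM at P21 and 2870.3, 2719.7 and 3032 at P49, a 5.78-fold higher mean (log2 difference 2.53 ± 0.41 SE, adjusted p = 0.00254). Its mean was 575 FPKM at P29 and 836 at P35. Pon1, the paraoxonase carried on HDL particles, was at 10.3, 11.8 and 16.6 FPKM at P21 and 72.05, 65.03 and 95.7 at P49 (log2 difference 2.51, adjusted p = 0.0007), with 8.91 at P35. C7, a subunit of the complement membrane attack complex, was at 1.004, 0.771 and 0.6404 FPKM at P21 and 14.98, 18.1 and 13.1 at P49 (log2 difference 3.18, adjusted p = 0.000587), and 3.19 at P35. C6, the subunit that precedes it, rose from 2.43 ± 0.808 to 11.4 ± 1.72 FPKM (log2 difference 1.86, adjusted p = 0.000414), and C3, the central component of the cascade, rose from 353 ± 3.35 to 706 ± 11.9 FPKM (log2 difference 0.999, adjusted p = 0.0107). In all, 4 of 17 complement genes rose and 0 fell, though the list's median was -0.19 and 4 fell without P25 replicate 2.

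Acute phase and defence genes had 8 of 23 members higher and 1 lower. Orm1, which encodes an acute phase lipocalin, was at 37.9, 45.3 and 10.3 FPKM at P21 and 185, 199.6 and 206 at P49 (log2 difference 2.86 ± 0.41 SE, adjusted p = 0.00124), with near-identical copies that leave its level uncertain. Lrg1, a secreted glycoprotein, rose from 195 ± 59.1 to 629 ± 69.8 FPKM (log2 difference 1.72, adjusted p = 0.00093). Camp, the antimicrobial peptide cathelicidin that dermal adipocytes are known to make, rose from 2.04 ± 0.401 to 5.37 ± 0.903 FPKM (log2 difference 1.07, adjusted p = 0.017, but 0.0606 without P49 replicate 2, the highest of 4 such libraries). The chemokines Ccl4, from 40.7 ± 14.9 to 174 ± 35.03 FPKM (log2 difference 2.11, adjusted p = 0.00856), and Ccl5, from 1.57 ± 1.14 to 9.61 ± 0.653 FPKM (log2 difference 2.13, adjusted p = 0.0282, but 0.0953 without P21 replicate 1, the highest of 5 such libraries), were among the 15 largest rises. Macrophage and monocyte markers, a source of such chemokines, summed to 1194 to 2118 FPKM at P21 and 1100.2 to 1535 at P49, and lymphocyte markers to 6.35 to 8.502 and 3.298 to 4.59; their part in these rises was not tested. Leaving out single libraries gave counts of higher defence genes of 3 without P21 replicate 3, P49 replicate 1 or P49 replicate 2, and 4 without P21 replicate 1.

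Of 27 interferon response genes 10 rose and 0 fell, the median log2 difference was 0.75, and in 24 of 27 every P49 library was above every P21 library (19.9% of all tested genes). For 19 of the 27 the highest mean of the 5 ages was at P35, and for 7 at P49. Ifit1, which binds foreign RNA, was at 6.23, 6.36 and 10.3 FPKM in the P21 libraries and 39.1, 30.8 and 43.6 at P49 (log2 difference 2.19 ± 0.52 SE, adjusted p = 0.0143, but 0.0559 without P21 replicate 1). Rsad2, the antiviral enzyme viperin, was at 10.5, 9.73 and 18.7 and 57.3, 40.2 and 67.8 FPKM (log2 difference 2.03, adjusted p = 0.0281, but 0.0923 without P21 replicate 1, the highest of 5 such libraries). For both genes P49 replicate 2 was the lowest P49 library and still lay above every P21 library. Ifit2 rose from 4.09 ± 0.869 to 20.1 ± 2.75 FPKM (log2 difference 2.05, adjusted p = 0.0125). The count fell whichever of the 6 libraries was left out. It was 2 without P21 replicate 1, and 4 without P21 replicate 2 or P21 replicate 3. Without P49 replicate 1, P49 replicate 2 or P49 replicate 3 it was 3. It was 12 without P25 replicate 2, and 22 with only P21 and P49 in the fit.

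Interferon induces these genes through STAT and IRF factors, which bind a repeated GAAA core. The RefSeq promoters (GRCm38.p6, 250 bases before to 50 after the start) of 19 of the 27 listed genes were found. On either strand, 10 of the 19 genes held GAAANNGAAA in a promoter, as did 3.99% of all 27025 genes (3.44% of 32851 promoters). Among genes that rose it was in 3 of 6, and among the other genes in 7 of 13. The promoters of the 3 rising genes that hold it are shown as examples. Capitals mark the element or its reverse complement, and no 2 places overlap. All are read 5′ to 3′ along the gene.
Ifit1, chr19:34640639-34640938, plus strand: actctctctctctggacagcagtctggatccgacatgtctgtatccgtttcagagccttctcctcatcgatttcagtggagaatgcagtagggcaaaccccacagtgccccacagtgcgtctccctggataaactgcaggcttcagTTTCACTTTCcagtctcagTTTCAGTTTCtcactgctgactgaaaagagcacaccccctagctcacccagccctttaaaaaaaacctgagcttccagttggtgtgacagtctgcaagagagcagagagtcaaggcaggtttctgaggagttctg
Ifit3, chr19:34583279-34583578, plus strand: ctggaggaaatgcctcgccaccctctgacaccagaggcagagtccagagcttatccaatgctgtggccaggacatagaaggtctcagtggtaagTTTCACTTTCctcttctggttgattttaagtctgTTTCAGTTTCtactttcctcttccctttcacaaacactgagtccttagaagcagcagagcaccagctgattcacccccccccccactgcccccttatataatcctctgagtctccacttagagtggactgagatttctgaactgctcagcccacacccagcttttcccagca
Rsad2, chr12:26456403-26456702, minus strand: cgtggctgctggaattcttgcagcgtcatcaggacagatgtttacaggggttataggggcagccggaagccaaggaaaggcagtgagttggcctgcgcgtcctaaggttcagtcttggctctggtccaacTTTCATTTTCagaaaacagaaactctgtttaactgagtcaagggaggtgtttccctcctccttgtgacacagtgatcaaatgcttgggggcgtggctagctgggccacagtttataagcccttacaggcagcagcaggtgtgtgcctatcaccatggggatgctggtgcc
Ifit1 and Ifit3 hold 2 places each and Rsad2 1, which begin 104, 156 and 120 bases before the start at the farthest. A match is a description of the letters and was not tested for binding.

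Clock genes moved in both directions. Of 18 tested genes 8 rose and 3 fell, and the 3 that fell, Arntl, Clock and Rora, encode activators. Dbp, an output factor of the clock (ENSMUSG00000059824, chr7:45705088-45710155, plus strand), was at 24.6, 25.1 and 24.9 FPKM at P21 and 84.6, 112 and 109 at P49, a 4.10-fold higher mean (log2 difference 1.98 ± 0.21 SE, adjusted p = 0.000167). The P21 values were within 1 FPKM of each other. Nr1d1, the repressor REV-ERB alpha, rose from 31.998 ± 1.34 to 66.5 ± 14.7 FPKM (log2 difference 1.01, adjusted p = 0.00197), and Hlf, an output factor like Dbp, rose from 4.53 ± 0.703 to 8.93 ± 0.118 FPKM (log2 difference 0.85, adjusted p = 0.0139). Arntl, the BMAL1 gene, fell from 2.64 ± 0.465 to 0.8201 ± 0.151 FPKM (log2 difference -0.997, adjusted p = 0.0154, but 0.065 without P21 replicate 1, the highest of 3 such libraries), and Clock, its partner, fell from 8.99 ± 0.195 to 5.304 ± 0.498 FPKM (log2 difference -0.67, adjusted p = 0.00127). The higher count was 4 without P21 replicate 2 or P49 replicate 2, and 5 without P49 replicate 3. The time of harvest is not labelled, and age and time of harvest cannot be told apart.

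BMAL1 and CLOCK bind the E-box, CACGTG. RefSeq promoters were found for 16 of 19 clock genes and 5 of them held it, against 8.09% of all genes (7.15% of promoters). It was in 3 of the 7 matched genes that rose and in 2 of the other 9. The promoters of Tef and Ciart, which rose from 48.7 ± 2.61 to 84.5 ± 7.22 FPKM (log2 difference 0.78, adjusted p = 0.0122) and from 5.27 ± 0.673 to 10.7 ± 4.46 FPKM (log2 difference 0.84, adjusted p = 0.0465, but 0.163 without P49 replicate 3, the highest of 5 such libraries), are shown with each E-box in capitals.
Tef, chr15:81811164-81811463, plus strand: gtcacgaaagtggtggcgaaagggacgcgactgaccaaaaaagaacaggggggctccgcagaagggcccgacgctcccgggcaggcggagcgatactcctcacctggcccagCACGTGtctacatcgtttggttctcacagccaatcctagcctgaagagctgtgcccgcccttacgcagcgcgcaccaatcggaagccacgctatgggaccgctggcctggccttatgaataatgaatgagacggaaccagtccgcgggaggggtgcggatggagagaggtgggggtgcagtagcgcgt
Ciart, chr3:95882179-95882478, minus strand: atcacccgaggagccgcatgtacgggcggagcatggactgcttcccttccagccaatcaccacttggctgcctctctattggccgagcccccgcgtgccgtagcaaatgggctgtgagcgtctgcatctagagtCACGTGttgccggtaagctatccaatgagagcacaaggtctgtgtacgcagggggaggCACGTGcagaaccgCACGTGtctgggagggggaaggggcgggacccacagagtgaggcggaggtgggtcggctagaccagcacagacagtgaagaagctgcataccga
Ciart holds the E-box at 3 places. The table lists 2 promoters for Tef, each with 1 E-box, and the downstream one is shown.

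Imprinted genes that regulate fetal and early postnatal growth were lower at P49. Of 17 tested 12 fell and 0 rose, with a median log2 difference of -0.93. H19, a maternally expressed RNA (ENSMUSG00000000031, chr7:142575529-142578143, minus strand), was at 61.2, 29.02 and 46.8 FPKM in the P21 libraries and 2.42, 3.21 and 2.34 at P49 (log2 difference -3.62 ± 0.49 SE, adjusted p = 0.000968). Igf2, its paternally expressed neighbour and a growth factor, was at 17.1, 8.73 and 13.1 and 0.805, 0.892 and 0.678 FPKM (log2 difference -2.92, adjusted p = 0.000537). Both genes were low in all 3 P49 libraries and varied about 2-fold among the P21 libraries. Zim1, an imprinted zinc finger gene, fell from 15.3 ± 2.51 to 1.48 ± 0.528 FPKM (log2 difference -2.73, adjusted p = 0.000193). Cdkn1c, a cell cycle inhibitor, fell from 38.5 ± 1.98 to 13.6 ± 2.04 FPKM (log2 difference -1.45, adjusted p = 0.00337), and Plagl1, a transcription factor of the same network, fell from 37.7 ± 3.45 to 20.5 ± 3.34 FPKM (log2 difference -0.86, adjusted p = 0.000957). Dlk1, an inhibitor of adipocyte differentiation, fell from 1.45 ± 0.616 to 0.222 ± 0.126 FPKM (log2 difference -0.98, adjusted p = 0.0145, but 0.0676 without P21 replicate 1, the highest of 2 such libraries). For H19 and Igf2 most of the difference was present by P29, with means of 2.996 and 0.816 FPKM.

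In the IGF and growth hormone axis 6 of 19 genes fell and 2 rose. The higher count was 0 without P21 replicate 1 or P49 replicate 3, and 1 without P21 replicate 2, P21 replicate 3, P49 replicate 1 or P49 replicate 2. Igfbp3, the main carrier of IGF in blood (ENSMUSG00000020427, chr11:7206086-7213923, minus strand), was at 291, 146 and 209 FPKM at P21 and 13.05, 21.7 and 13.7 at P49, a 13.3-fold lower mean (log2 difference -3.64 ± 0.40 SE, adjusted p = 0.000198). Igf1r, the receptor, fell from 7.26 ± 1.52 to 3.01 ± 0.283 FPKM (log2 difference -1.03, adjusted p = 0.00456). Igf1 did not pass and averaged 51.4 ± 7.78 FPKM at P21 and 64.2 ± 4.76 at P49 (adjusted p = 0.178), with its highest mean, 108, at P29. The growth hormone receptor Ghr averaged 339 ± 38.5 and 376 ± 26.6 FPKM (adjusted p = 0.616). The fall with the narrowest spread among the 15 largest was that of Obsl1, a cytoskeletal linker (ENSMUSG00000026211, chr1:75479310-75506452, minus strand), at 16.01, 17.8 and 18.1 FPKM at P21 and 0.8701, 1.301 and 1.201 at P49 (log2 difference -3.11 ± 0.16 SE, adjusted p = 9.73e-07). Obsl1 averaged 7.25, 5.17 and 2.66 FPKM at the ages between. Mdk, the growth factor midkine, fell from 12.1 ± 4.49 to 0.624 ± 0.157 FPKM (log2 difference -2.96, adjusted p = 0.00117). Of 23 cell division genes 0 passed in limma and 0 by voom, 8 were at an unadjusted p under 0.05, all lower, and 15 fell without P25 replicate 2 (median log2 difference -0.66), and Mki67 averaged 1.79 ± 0.211 FPKM at P21 and 0.589 ± 0.215 at P49 (adjusted p = 0.149).

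Collagen and elastic fibre genes were lower at P49. Of 26 fibrillar collagen and matrix genes 19 fell and 0 rose, with a median log2 difference of -1.73. Col1a1, a chain of type I collagen (ENSMUSG00000001506, chr11:94936224-94953042, plus strand), was at 2998, 1899 and 2115 FPKM in the P21 libraries and 349, 580.03 and 213 at P49 (log2 difference -2.71 ± 0.70 SE, adjusted p = 0.0202, but 0.0759 without P21 replicate 1, the highest of 4 such libraries). Postn, the matricellular protein periostin, was at 293, 169 and 243 and 17.1, 23.3 and 11.5 FPKM, a 13.6-fold lower mean (log2 difference -3.71, adjusted p = 0.00329). P21 replicate 1 was the highest library for both, and no P49 library reached the lowest P21 value. Eln, the elastic fibre core protein, fell from 129.6 ± 66.1 to 14.1 ± 3.29 FPKM (log2 difference -3.02, adjusted p = 0.00733), Col3a1 fell from 2768 ± 685 to 527 ± 159 FPKM (log2 difference -2.40, adjusted p = 0.0124, but 0.0526 without P21 replicate 1), and the microfibril gene Mfap4 fell from 46.4 ± 15.96 to 5.86 ± 2.13 FPKM (log2 difference -2.78, adjusted p = 0.0134, but 0.0579 without P21 replicate 1, the highest of 2 such libraries). Col6a1, a chain of the type VI collagen that surrounds adipocytes, fell from 281 ± 43.8 to 70.7 ± 19.6 FPKM (log2 difference -1.998, adjusted p = 0.00124). At the ages between it averaged 243 FPKM at P29 and 189 at P35, while Col1a1 averaged 527 and 534. The matrix count was 7 without P21 replicate 1, 9 without P49 replicate 1 or P49 replicate 3, 10 without P21 replicate 3, and 12 without P49 replicate 2.

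Of 27 matrix enzymes 10 fell and 1 rose. Mmp11, stromelysin 3, was at 21.1, 5.87 and 11.2 FPKM at P21 and 0.923, 1.82 and 0.599 at P49 (log2 difference -2.58, adjusted p = 0.0012). Adamts5, a proteoglycan-cleaving protease, rose from 14.1 ± 1.92 to 28.9 ± 2.28 FPKM (log2 difference 0.99, adjusted p = 0.00142). Of 19 basement membrane genes 8 fell and 1 rose. Nid1, which links laminin to type IV collagen, fell from 201 ± 24.8 to 123 ± 8.78 FPKM (log2 difference -0.70, adjusted p = 0.00142), and the integrin chain Itga7 rose from 58.6 ± 7.53 to 117 ± 5.86 FPKM (log2 difference 0.99, adjusted p = 0.00228). Counts of lower genes were 3 without P21 replicate 1, P49 replicate 1 or P49 replicate 3, and 4 without P21 replicate 3 or P49 replicate 2 for the enzymes, with 21 without P25 replicate 2, and 4 without P21 replicate 1, P49 replicate 1, P49 replicate 2 or P49 replicate 3 for the basement membrane.

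Markers of fibroblasts and preadipocytes had a median log2 difference of -0.99 and myofibroblast genes -1.58, against -1.73 for the matrix genes. Lum is in the fibroblast and matrix lists, and Postn in the myofibroblast and matrix lists. The part of these cells in the fall of the matrix genes was not tested. In such bulk samples fewer cells of a type and less RNA per cell cannot be told apart. Of 21 fibroblast and preadipocyte markers 7 fell and 0 rose. Their summed level was 1036 to 1345 FPKM at P21 and 843 to 929 at P49, with none listed at 0 in all 6 libraries. Pdgfra, the receptor that marks fibroblasts and adipocyte progenitors, was at 24.2, 12.1 and 15.6 FPKM at P21 and 3.43, 4.17 and 2.804 at P49 (log2 difference -1.99, adjusted p = 0.025, but 0.098 without P21 replicate 1, the highest of 5 such libraries). Dpp4, of an early progenitor state, averaged 6.72 ± 2.56 and 2.81 ± 0.286 FPKM (adjusted p = 0.168). The count of falling markers was 0 without P21 replicate 1, 1 without P49 replicate 1, and 2 without P21 replicate 3, P49 replicate 2 or P49 replicate 3, and 13 without P25 replicate 2.

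All tested genes of the endothelial, mast cell, red cell, myofibroblast (9 genes) and lymphocyte (3 genes) lists had every P49 library below every P21 library. The same held for 31.4% of all tested genes. Of 17 endothelial genes 15 fell and 0 rose. Their summed level was 264 to 508 FPKM at P21 and 75.6 to 117 at P49. Cldn5, a tight junction protein of endothelium, fell from 52.8 ± 21.3 to 7.43 ± 2.37 FPKM (log2 difference -2.64, adjusted p = 0.00958), and Pecam1 was at 67.5, 31.4 and 42.8 FPKM at P21 and 11.3, 13.1 and 9.902 at P49 (adjusted p = 0.0205, but 0.0871 without P21 replicate 1, the highest of 5 such libraries). Sele, E-selectin of activated endothelium, fell from 60.3 ± 36.8 to 6.32 ± 1.42 FPKM (log2 difference -2.90, adjusted p = 0.0114, but 0.0529 without P21 replicate 1). The endothelial count was 1 without P21 replicate 1 or P49 replicate 3, 2 without P49 replicate 1 or P49 replicate 2, and 3 without P21 replicate 3.

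Mast cell genes held without any 1 of the 6 libraries: 6 of 7 fell in each case. Cma1, the chymase of connective tissue mast cells (ENSMUSG00000022225, chr14:55941453-55944661, minus strand), was at 70.6, 81.1 and 119 FPKM at P21 and 5.98, 12.9 and 4.91 at P49 (log2 difference -3.42 ± 0.69 SE, adjusted p = 0.00742). Cpa3, mast cell carboxypeptidase, fell from 61.1 ± 19.3 to 5.11 ± 2.56 FPKM (log2 difference -3.38, adjusted p = 0.00504), Mcpt4 fell from 132 ± 46.4 to 13.5 ± 6.18 FPKM (log2 difference -3.22, adjusted p = 0.00774), and Tpsb2, a tryptase, fell from 80.7 ± 22.5 to 8.53 ± 4.42 FPKM (log2 difference -3.16, adjusted p = 0.00839). The P49 values of these genes were not 0, and 1 of the 3 P49 libraries was above the other 2. All 5 tested erythroid genes fell, also without any 1 library. Hbb-bs, an adult beta globin, fell from 125 ± 30.9 to 13.3 ± 6.39 FPKM (log2 difference -3.24, adjusted p = 0.00108), and Hba-a1 fell from 106 ± 26.01 to 11.7 ± 5.76 FPKM (log2 difference -3.18, adjusted p = 0.000791); globin genes have near-identical copies.

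Of 18 macrophage and monocyte genes 1 fell, the scavenger receptor Cd163, from 95.8 ± 25.001 to 29.04 ± 4.95 FPKM (log2 difference -1.67, adjusted p = 0.0146, but 0.0573 without P49 replicate 2, the highest of 2 such libraries). The pan-leukocyte gene Ptprc averaged 7.196 ± 2.48 FPKM at P21 and 7.56 ± 1.63 at P49 (adjusted p = 0.887). Pericyte markers had 3 lower and 2 higher of 10 (1 lower without P21 replicate 1 and 8 lower without P25 replicate 2). Their median log2 difference was -1.15. Every P49 library was below every P21 library for 8 of the 10 and above for 2, against 31.4% and 19.9% of all tested genes. Cspg4, the NG2 proteoglycan, rose from 9.96 ± 2.22 to 35.8 ± 1.19 FPKM (log2 difference 1.77, adjusted p = 9.83e-05), while Myh11, a smooth muscle myosin, fell from 5.52 ± 3.17 to 1.12 ± 0.192 FPKM (log2 difference -1.52, adjusted p = 0.0145, but 0.061 without P21 replicate 1). Keratinocyte genes were scarce: Krt14 was at 3.403, 1.32 and 1.498 FPKM at P21 and 0.323, 0.421 and 0.766 at P49 (adjusted p = 0.0352, but 0.145 without P21 replicate 1, the highest of 5 such libraries). Hair shaft genes summed to 0.263 to 0.814 FPKM at P21 and 0.138 to 0.451 at P49, so the 5 tested genes passed the filter only through the ages between and were too low at P21 and P49 for the test to show a difference. Skeletal muscle genes summed to 83.3 to 488 FPKM at P21, with P21 replicate 1 the highest, and 84.6 to 97.95 at P49. Of 11 tested 0 passed in limma and 0 by voom, 5 were at an unadjusted p under 0.05, all lower, and 4 fell without P21 replicate 3 or P25 replicate 2.

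The remaining cell type lists were small. Of 9 myofibroblast genes 3 fell, of 5 lymphatic endothelial genes 2, of 3 lymphocyte genes 2, and of 9 keratinocyte and follicle genes 3. The myofibroblast count was 1 without P21 replicate 1, P49 replicate 1 or P49 replicate 3, and 7 without P25 replicate 2. The lymphatic count was 0 without P21 replicate 1, P21 replicate 3, P49 replicate 1, P49 replicate 2 or P49 replicate 3, the lymphocyte count 1 without P21 replicate 1, P21 replicate 3, P49 replicate 2 or P49 replicate 3, and the keratinocyte count 0 without P21 replicate 1 or P21 replicate 3, and 1 without P49 replicate 1, P49 replicate 2 or P49 replicate 3. Of 8 nerve and Schwann cell genes 3 fell and 1 rose, and the lower count was 0 without P21 replicate 1, P49 replicate 1, P49 replicate 2 or P49 replicate 3. Pmp22, a protein of peripheral myelin, rose from 144 ± 15.1 to 211 ± 8.46 FPKM (log2 difference 0.55, adjusted p = 0.00885). Sebaceous gland, dermal papilla and melanocyte lists each had 1 lower gene, Mc5r, Prom1 and Mitf, of 3, 6 and 3 tested; the melanocyte count was 0 without P21 replicate 1, P21 replicate 3, P49 replicate 1, P49 replicate 2 or P49 replicate 3. Of 6 MHC class II genes 0 passed in limma, 0 by voom and 0 at an unadjusted p under 0.05, but 4 were higher with only P21 and P49 in the fit. Their median log2 difference was 0.68, and they summed to 427 to 670.4 FPKM at P21 and 749 to 1017 at P49. The macrophage gene Emr1 (Adgre1) averaged 30.2 ± 10.7 FPKM at P21 and 15.5 ± 3.33 at P49 (adjusted p = 0.183).

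**Figure D4:**
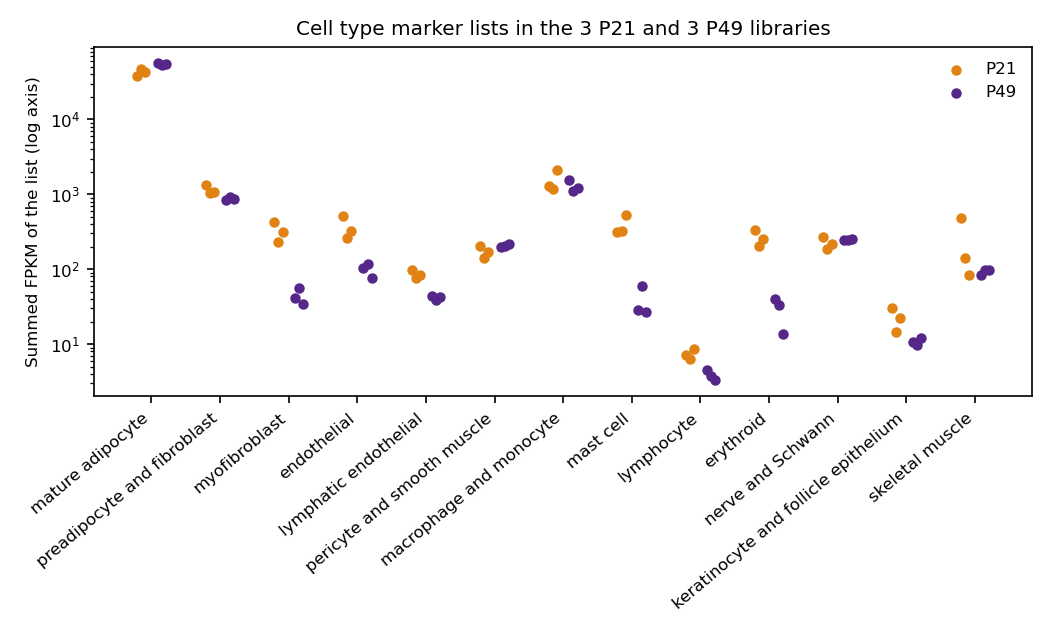
Summed FPKM of each cell type list (log axis) in the 3 P21 libraries (orange) and the 3 P49 libraries (purple). Mature adipocyte markers sum to 37985 to 47518 FPKM at P21 and 53745 to 56779 at P49, and mast cell markers to 317 to 535 and 27.1 to 60.6.

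Of 25 secreted signals known from the hair cycle 8 fell and 1 rose (16 fell without P25 replicate 2). Dkk3, a secreted relative of the Wnt inhibitor Dickkopf, was at 10.9, 3.51 and 5.91 FPKM at P21 and 0.7297, 0.734 and 0.461 at P49 (log2 difference -2.13, adjusted p = 0.0062). Bmp4, which holds hair stem cells in rest, fell from 6.88 ± 2.22 to 1.88 ± 0.593 FPKM (log2 difference -1.44, adjusted p = 0.0111, but 0.052 without P21 replicate 1). Tnf, the inflammatory cytokine, rose from 17.1 ± 1.06 to 42.5 ± 8.86 FPKM (log2 difference 1.24, adjusted p = 0.0164, but 0.0643 without P49 replicate 1, the highest of 3 such libraries). The count of falling signals was 1 without P21 replicate 1, 2 without P49 replicate 3, 3 without P21 replicate 3 or P49 replicate 1, and 4 without P49 replicate 2. Of 23 TGF beta genes 5 rose and 5 fell. The lower count was 2 without P21 replicate 1, P49 replicate 1 or P49 replicate 3, and 3 without P21 replicate 3 or P49 replicate 2, and 9 without P25 replicate 2. Pmepa1, a brake on this pathway (ENSMUSG00000038400, chr2:173224458-173276533, minus strand), was at 14.6, 17.7 and 15.9 FPKM at P21 and 91.9, 72.1 and 78.9 at P49 (log2 difference 2.26 ± 0.17 SE, adjusted p = 3.49e-05). Inhbb, an activin subunit, rose from 11.5 ± 2.89 to 31.3 ± 1.78 FPKM (log2 difference 1.39, adjusted p = 0.000438), and the inhibitory Smad6 rose from 4.48 ± 1.41 to 9.93 ± 0.625 FPKM (log2 difference 1.03, adjusted p = 0.00326). Ltbp1, which stores latent TGF beta in matrix, fell from 8.12 ± 1.65 to 2.62 ± 0.4197 FPKM (log2 difference -1.32, adjusted p = 0.00947). Of 11 Wnt targets and feedback genes 1 rose and 2 fell. The higher count was 2 without P21 replicate 3, and 3 without P25 replicate 2, and the lower count was 0 without P21 replicate 1, and 1 without P21 replicate 3 or P49 replicate 3. Axin2, a feedback target of Wnt signalling, rose from 2.31 ± 0.415 to 4.804 ± 0.0346 FPKM (log2 difference 0.82, adjusted p = 0.00729), and Lgr5, a stem cell receptor for R-spondins, fell from 1.38 ± 0.546 to 0.168 ± 0.0149 FPKM (log2 difference -0.999, adjusted p = 0.0146, but 0.0623 without P21 replicate 1, the highest of 2 such libraries).

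Of 27 ribosomal protein genes 21 fell by a small amount (median log2 difference -0.37), for example Rps6 from 276 ± 15.02 to 198 ± 1.195 FPKM (log2 difference -0.47, adjusted p = 0.0109), and 0 rose. That count was 11 with median-ratio scaling and 4 without P21 replicate 1 or P49 replicate 3, 6 without P21 replicate 3, 7 without P49 replicate 1, and 8 without P49 replicate 2. Of 23 immediate early genes, which respond within minutes to stimuli including tissue digestion, 6 fell and 0 rose (19 fell without P25 replicate 2). Klf4 was at 212, 159 and 170.2 FPKM at P21 and 60.4, 55.4 and 70.8 at P49 (log2 difference -1.52, adjusted p = 0.0182, but 0.0704 without P21 replicate 1, the highest of 3 such libraries). Fos fell from 716 ± 66.2 to 325 ± 34.2 FPKM (log2 difference -1.14, adjusted p = 0.0256, but 0.088 without P21 replicate 1, the highest of 5 such libraries). The immediate early count was 1 without P21 replicate 1, P49 replicate 1 or P49 replicate 2, 2 without P21 replicate 3, and 3 without P49 replicate 3. Of 22 heat shock and unfolded protein genes 4 fell and 0 rose (15 fell without P25 replicate 2, and 0 without P21 replicate 1 or P49 replicate 1, 1 without P21 replicate 2, P21 replicate 3 or P49 replicate 2, and 2 without P49 replicate 3). Hspa8, a constitutive chaperone, fell from 632 ± 73.3 to 367 ± 39.9 FPKM (log2 difference -0.78, adjusted p = 0.0374, but 0.116 without P49 replicate 2, the highest of 6 such libraries). Among the most abundant called genes, the noncoding Yam1 varied widely at P21, 19096, 8941 and 9919 FPKM, and was at 6184, 6747 and 4048 at P49 (adjusted p = 0.0493, but 0.19 without P21 replicate 1, the highest of 5 such libraries, and 0.0563 by voom).

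**Figure D5:**
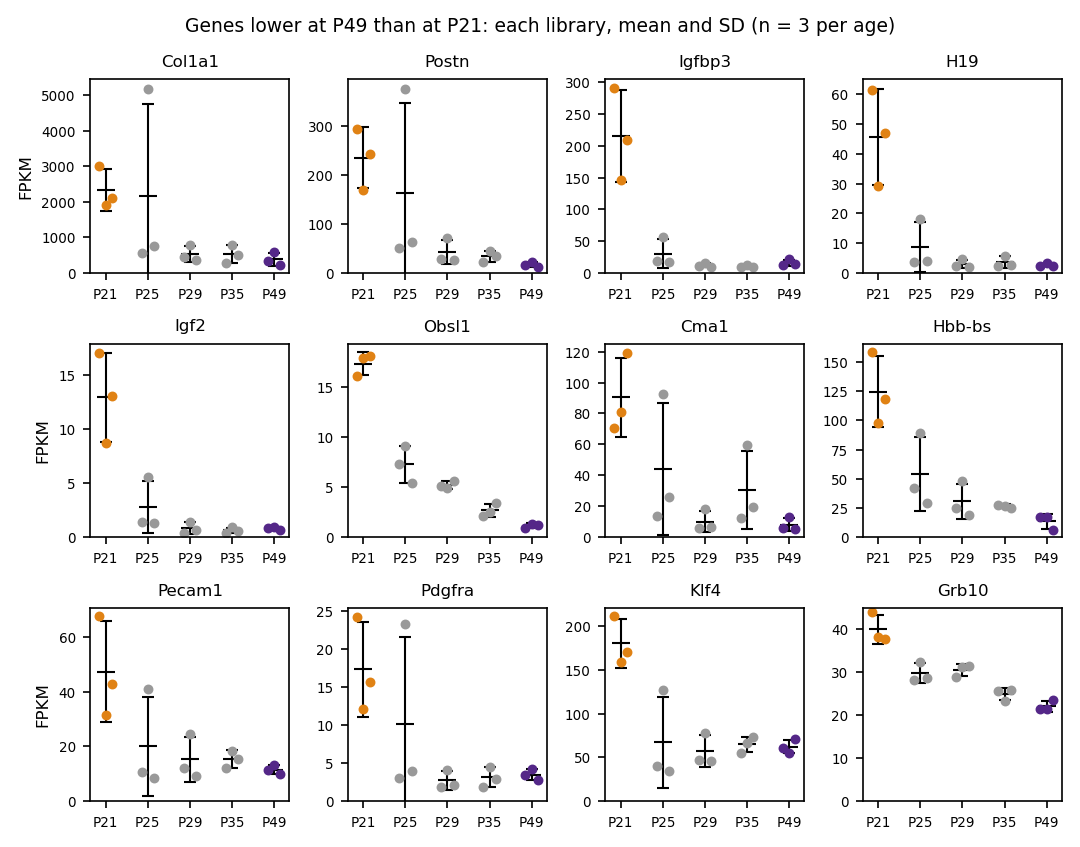
Panels as for the rising genes, with FPKM on the y axis from 0, a point per library and a bar for mean and SD of 3, clipped at 0. Igfbp3, H19 and Igf2 are low from P25 or P29 on, Obsl1 and Grb10 fall over the ages between, and P25 replicate 2 is the high grey point in Col1a1, Postn, Cma1 and Pdgfra.

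Across the ages between, the difference seen at P49 was largely in place early. Genes called higher at P49 had a median log2 difference from P21 of 0.34 at P25, 0.43 at P29, 0.48 at P35 and 0.59 at P49. Genes called lower had -0.42, -0.53, -0.55 and -0.58. These genes were chosen on P49 against P21 and share its libraries, so the values describe the course of these genes and carry no test.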

How the data were processed

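RNA-seq libraries of dermal adipocytes were deposited by the authors as 1 table of FPKM per gene and library. Per the submitters' processing notes, the tools were CASAVA, FastQC, STAR 2.5 and HTSeq 0.6.1 and the build mm10/GRCm38. The annotation release and whether counting used strand are not given in the sources used here, so overlapping and antisense genes may share reads. Multiplying FPKM by gene length and dividing by the smallest step of a library gave whole reads (within 0.05 read, 100% of genes), used for depth and for the voom alternative.

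Log2 of FPKM + 1 for 12259 genes was fitted with limma 3.58.1 (statmod 1.5.0, R 4.3.3), 1 mean per age over all 15 libraries, with a trended, robust empirical Bayes step, and P49 minus P21 was adjusted by the Benjamini-Hochberg method at 0.05. Fold changes on this scale understate low genes. Depth floors cover counting error only.

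The members and the 48 gene lists (857 genes in the table, 739 tested; 3 symbols not matched, 6 matched by gene ID) were chosen with earlier results of these data known. Named genes were the 15 largest rises and 15 largest falls among called genes with 5 FPKM or more at the higher age, no overlap and an established symbol, up to 3 called members per list and direction, 30 fixed genes, and the 5 most abundant called genes per direction. Cdkn1c, Ciart, Col6a1, Fos, Klf4, Me1, Plagl1, Slc25a1 and Tef fall outside this rule and were named after their values were seen. Some genes that the rule selects are not reported here. Promoters are from RefSeq (GRCm38.p6). Figures used Python 3.11.15, numpy 2.4.6 and matplotlib 3.10.9. Alternatives are given in the closing section.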

Additional observations from a re-analysis of the deposited data

How the results depend on the processing

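The 2679 calls became 2643 with quantile normalization, 2550 with median-ratio scaling, 2660 without trend and robust steps, 2262 without a filter, 2610 with a pseudocount of 0.1 and 2571 by voom on the recovered reads. They became 4154 (1530 higher, 2624 lower) with only P21 and P49 in the fit, 5142 (1887, 3255) with library weights, 4498 (1704, 2794, and 773 at 2-fold or more) without P25 replicate 2, and 10 against a 2-fold minimum. Leaving out each P21 or P49 library gave 1066 to 2167 calls, 491 to 771 higher, 575 to 1396 lower, and 289 to 642 at 2-fold or more. Of 161 called genes named by the rule 88 passed in every one of these settings other than the 2-fold minimum, which was not applied to them, and 0 changed sign. Of these 161, 66 no longer passed without P21 replicate 1 and 9 by voom. Calls of the 2679 also made were 2207 with quantile normalization and 2487 by voom. Deviations from the age means of same-numbered P21 and P49 libraries correlated at r -0.07, -0.10 and -0.06. Each reached 0.27, 0.23 and 0.26 with another number. This covers P21 and P49 only. For Postn, replicate 2 was the highest library at P25 (375 FPKM), P29 (70.5), P35 (45.01) and P49 (23.3), and the lowest at P21 (169). Whether libraries of the same number share a batch was not tested. With the number as a replicate block 2731 genes passed, 1065 higher and 1666 lower.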
